A study of Mus musculus with 16 samples.

Results

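The 7 genes Npnt, Capn6, Gja1, Cer1, Pak3, Igfn1 and Fndc3c1 were picked because each was strongly lower in tumours of mouse melanoma cells carrying a guide RNA against Nlrc5 than in tumours carrying a scramble guide. They are 7 of the 14933 genes listed for those tumours, and 7 of the 15653 genes listed in any of the 3 expression tables of the study. The choice had no stated threshold. The tumour values therefore describe how the genes were chosen and are given without a test, while the cells grown in culture are libraries that the choice did not use. RNA sequencing covered 16 libraries of B16F10, an established mouse melanoma line, carried as B16F10-TDM and B16F10-TDMa, names that the labels leave unexplained. The series title speaks of demethylation and activation of Nlrc5, a transactivator of MHC class I genes. The groups were TDMa tumours with sgNlrc5 and with sgScramble (4 libraries each), TDMa culture with sgNlrc5 and with sgScramble (2 each), and TDM culture with sgNlrc5 and with sgScramble (2 each). All of them had been transduced with 1 of these guides, so no untransduced cells were compared. The labels name neither the host of the tumours nor its age, and they do not tell if replicate libraries came from different cultures or different animals. The p-values below therefore measure the spread between these libraries, which may be technical.

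Nlrc5 itself was higher with its guide in each setting, as a check of the labels. It ranged from 3434 to 4381 normalised counts in sgNlrc5 tumours against 257 to 837 in sgScramble tumours, from 3142 to 3146 in sgNlrc5 TDMa culture against 242 to 254 with sgScramble, and from 57.4 to 78.6 in sgNlrc5 TDM culture against 12.7 to 22.9 with sgScramble. A normalised count is a read count divided by the size factor of its library. The libraries held 12183889 to 16390886 reads.

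The genes have separate roles. Nephronectin and Cerberus, encoded by Npnt and Cer1, are secreted: nephronectin is a basement membrane protein bound by integrin α8β1 and known from kidney development, and Cerberus binds Nodal and BMP ligands and keeps them from their receptors. Gja1 encodes connexin 43, which forms the gap junction channels that join neighbouring cells and is found in many tissues, skin included. Pak3 encodes a kinase switched on by the small GTPases Rac and Cdc42 and is best known from neurons. Capn6 encodes a calpain that lacks the catalytic cysteine of its family and binds microtubules, Igfn1 encodes an immunoglobulin and fibronectin type III domain protein of skeletal muscle, and Fndc3c1 encodes a protein with fibronectin type III domains.

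RefSeq promoters are shown for 4 of the genes. Npnt and Igfn1 were the genes with the largest falls in TDMa culture and lie at opposite ends in CG content, and Capn6 and Gja1 share a motif. All 7 genes matched the RefSeq promoter table, which is on GRCm38.p6, an earlier build than the GRCm39 of the submitters' processing notes. Each window runs from 250 bases before a gene's start to 50 bases after it, 5′ to 3′ on the gene's strand. They lie at chr3:132950242-132950541 (minus strand), chr1:136006293-136006592 (minus strand), chrX:143827363-143827662 (minus strand) and chr10:56377050-56377349 (plus strand). Capitals mark TGACTCA or its reverse complement, the AP-1 motif, in Capn6 and Gja1, and, in Igfn1, CTTTGA, a TCF/LEF motif, and the reverse complement of CATGTG, the M-box of the melanocyte factor MITF.
Npnt: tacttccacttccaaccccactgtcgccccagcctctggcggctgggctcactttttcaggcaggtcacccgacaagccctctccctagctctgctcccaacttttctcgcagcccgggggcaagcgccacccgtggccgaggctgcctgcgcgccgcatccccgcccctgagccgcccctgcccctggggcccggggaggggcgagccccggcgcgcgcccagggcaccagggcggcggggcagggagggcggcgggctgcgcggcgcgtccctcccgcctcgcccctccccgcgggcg
Igfn1: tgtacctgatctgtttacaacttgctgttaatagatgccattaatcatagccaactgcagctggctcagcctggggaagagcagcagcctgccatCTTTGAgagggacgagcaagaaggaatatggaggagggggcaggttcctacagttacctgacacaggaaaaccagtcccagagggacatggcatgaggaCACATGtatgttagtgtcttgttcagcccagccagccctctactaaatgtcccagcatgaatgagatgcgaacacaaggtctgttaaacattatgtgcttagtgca
Capn6: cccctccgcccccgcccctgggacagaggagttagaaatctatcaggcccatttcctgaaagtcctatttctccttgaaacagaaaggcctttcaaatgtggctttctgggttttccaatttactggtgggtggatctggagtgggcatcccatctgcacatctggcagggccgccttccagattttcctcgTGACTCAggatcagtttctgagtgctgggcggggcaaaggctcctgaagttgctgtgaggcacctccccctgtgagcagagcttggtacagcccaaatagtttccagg
Gja1: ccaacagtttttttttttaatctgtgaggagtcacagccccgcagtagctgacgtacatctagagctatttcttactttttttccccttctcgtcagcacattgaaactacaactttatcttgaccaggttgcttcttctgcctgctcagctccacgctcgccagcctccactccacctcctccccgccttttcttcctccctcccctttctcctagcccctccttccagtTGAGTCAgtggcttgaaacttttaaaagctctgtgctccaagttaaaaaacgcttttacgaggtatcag
The Npnt window held 32 CG dinucleotides and that of its second listed start 26, against 2 in Igfn1, 5 in Capn6 and 8 in Gja1. The remaining windows held 6 in Cer1, 17 in Fndc3c1, and 14, 3 and 4 at the 3 starts of Pak3. The median over 27025 promoters was 7, and 90.8% of them had fewer CG than the first Npnt window, against 14.6% for Igfn1. Over the same promoters and both strands, 5.17% held TGACTCA, 14.1% CATGTG, 16.2% CTTTGA, 14.6% the TEAD motif CATTCC and 14.2% TATAAA. None of the windows of the 7 genes held TATAAA, and CATTCC was in 1 of the 3 Pak3 windows. A match to so short a motif describes the letters and shows no binding.

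In the tumours every one of the 7 genes had all sgNlrc5 libraries below all sgScramble libraries. That was true of 19.1% of the 13385 genes tested there (those averaging 10 or more normalised counts), and of 0.306% with a log2 fold change of -2 or below in addition; 39.4% of the genes were called in either direction by limma and 18.1% had all sgNlrc5 libraries above. Since the genes were picked on this contrast, nothing is read from the count. Ordered by log2 fold change from the lowest, Npnt was 1, Capn6 3, Igfn1 6, Cer1 7, Fndc3c1 8, Pak3 9 and Gja1 22 among these genes. In bulk tumour RNA, fewer cells of a type and less RNA per cell cannot be told apart.

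**Figure D1:**
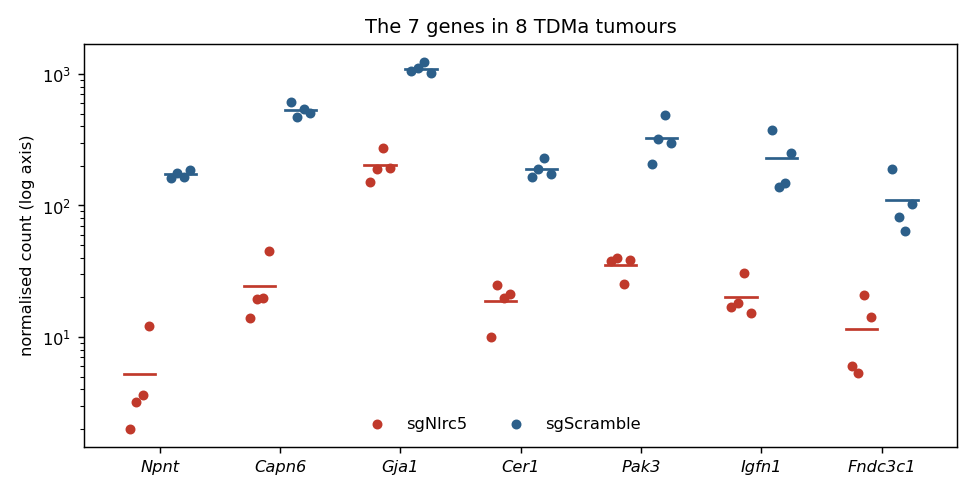
Normalised count (log axis) of the 7 genes in 8 TDMa tumours, 4 with sgNlrc5 (left of each pair) and 4 with sgScramble, each point a library and each line a group mean. No sgNlrc5 tumour reached the lowest sgScramble tumour for any of the genes, with the widest gap for Npnt, 12.1 against 161.

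Among the secreted proteins, Npnt was close to absent from the tumours with the Nlrc5 guide. Its 4 libraries had 2.01, 3.22, 3.62 and 12.1 normalised counts with sgNlrc5, against 161, 177, 165 and 187 with sgScramble. These rest on 21 reads in all with sgNlrc5 and 703 with sgScramble. The means were 5.22 ± 4.61 and 172 ± 11.8 (SD, n = 4 each), 33.0-fold lower with sgNlrc5, a log2 fold change of -5.04. The sgScramble tumours were even, the highest 1.16 times the lowest, and sgNlrc5 replicate 4 held most of the Npnt reads of its group. Cer1 had 10.0, 24.7, 19.9 and 21.1 normalised counts with sgNlrc5, against 165, 189, 231 and 173 with sgScramble. Its means of 18.9 ± 6.27 and 189.5 ± 29.1 differed 10.0-fold (log2 -3.31), with no library between 24.7 and 165.

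Gja1, the gap junction gene, was the one of the 7 that kept a substantial signal in every tumour. It had 152, 191, 272 and 193 normalised counts with sgNlrc5, against 1049, 1106, 1227 and 1016 with sgScramble. The means were 202 ± 50.3 and 1099 ± 92.6, 5.44-fold lower with sgNlrc5 (log2 -2.47), the smallest fold of the 7, and it rests on 823 and 4457 reads. The 8 libraries fell into groups that did not meet: the highest sgNlrc5 tumour was 3.73-fold below the lowest sgScramble tumour.

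Pak3, the kinase gene, had 38.1, 39.7, 25.3 and 38.2 normalised counts with sgNlrc5, against 205, 322, 484 and 301 with sgScramble. The sgNlrc5 tumours lay close together, while the sgScramble tumours spread 2.37-fold, with replicate 3 high and replicate 1 low. The means were 35.3 ± 6.71 and 328 ± 116, a 9.28-fold difference (log2 -3.13).

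Capn6, the microtubule-binding calpain, had 14.0, 19.3, 19.9 and 45.2 normalised counts with sgNlrc5, against 611, 471, 539.8 and 505 with sgScramble. Replicate 4 of sgNlrc5 was the highest of its group, as for Npnt, and still 10.4-fold below the lowest sgScramble tumour. The group means were 24.6 ± 14.0 and 532 ± 60.1, 21.6-fold lower with sgNlrc5 (log2 -4.51). Igfn1, the muscle protein gene, had 17, 18.2, 30.7 and 15.1 normalised counts with sgNlrc5, against 378, 137, 147 and 252 with sgScramble. Its sgScramble tumours differed among themselves by 2.77-fold. The means of 20.3 ± 7.10 and 228 ± 113 differed 11.3-fold (log2 -3.36). Fndc3c1, the most uneven of the 7 among sgScramble tumours, had 6.02, 5.36, 20.8 and 14.1 normalised counts with sgNlrc5, against 188, 82.1, 63.6 and 103 with sgScramble. Its means were 11.6 ± 7.32 and 109 ± 55.2, 9.46-fold lower with sgNlrc5 (log2 -3.21), and the nearest libraries of both guides were 3.06-fold apart.

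The 7 genes did not share 1 order over the tumours of a guide. Among sgScramble tumours, replicate 1 was the highest for Capn6, Igfn1 and Fndc3c1 and the lowest for Npnt, Cer1 and Pak3. Replicate 3 was the highest for Gja1, Cer1 and Pak3. Among sgNlrc5 tumours, replicate 1 was the lowest for Npnt, Capn6, Gja1 and Cer1, replicate 3 for Pak3, replicate 4 for Igfn1 and replicate 2 for Fndc3c1.

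Markers of other cells also moved between the tumours. The 8 T cell markers were all called higher in limma (median log2 fold change 2.92), with sums from 275 to 1109 normalised counts with sgNlrc5 against 51.6 to 77.5 with sgScramble. The 8 macrophage markers were also all called higher (median 1.92), with sums from 11142 to 14411 against 2977 to 4325, and 6 to 8 were called without single libraries. Of 10 melanocyte lineage markers 5 were higher and 1 lower (median 0.41), with sums from 645736 to 1024856 with sgNlrc5 against 597264 to 670496 with sgScramble. The lower one was lost without any of 6 single libraries. No sgNlrc5 tumour had a melanocyte sum below the lowest sgScramble tumour, and replicate 3 lay within the sgScramble range. A scaling to the melanocyte sum of each library was chosen after the data were seen. With it, the 7 genes were 6.32-fold (Gja1) to 38.2-fold (Npnt) lower with sgNlrc5. The groups again did not overlap, on the contrast the genes were picked on. The scaling moved the median log2 fold change of all genes to -0.27. The sum does not measure tumour cell content alone. In TDMa culture it was 219899 to 220846 with sgNlrc5 against 159147 to 160837 with sgScramble, with 8 of 10 markers called higher. In the tumours it was mostly Dct, at 504500 ± 105357 with sgNlrc5 and 453600 ± 17315 with sgScramble.

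**Figure D2:**
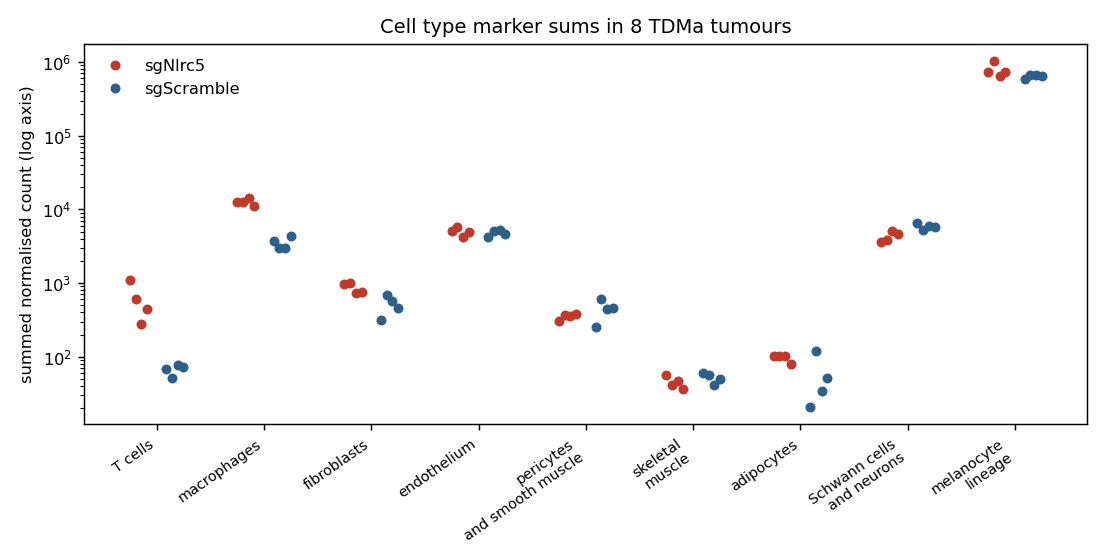
Summed normalised count (log axis) of cell type marker lists in 8 TDMa tumours, sgNlrc5 left and sgScramble right of each pair, each point a library. T cell and macrophage sums were higher in every sgNlrc5 tumour (lowest 275 and 11142) than in any sgScramble tumour (highest 77.5 and 4325), while the endothelial sums, mostly Vwf, overlapped (4269 to 5728 against 4221 to 5334).

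Stromal lists moved less. Of 6 tested fibroblast markers, 3 were higher and 1 lower (median 0.88), with sums from 733 to 995 with sgNlrc5 against 319 to 696 with sgScramble. Leaving out single libraries left 2 to 4 of them higher, 2 without sgScramble replicate 1, sgNlrc5 replicate 1 or sgNlrc5 replicate 3. None of 5 endothelial markers was called (median 0.56, sums from 4269 to 5728 against 4221 to 5334, with 1 called without sgScramble replicate 2, sgNlrc5 replicate 3 or sgNlrc5 replicate 4). Vwf made up most of that sum, at 4609 ± 514 with sgNlrc5 and 4509 ± 459.7 with sgScramble, and was also listed in TDMa culture, at 1282 ± 19.1 and 530.3 ± 32.9. Of the other endothelial markers, Egfl7 was at log2 0.56, Cdh5 at 0.90, Kdr at 1.15 and Pecam1 at -0.20, none of them called. Pericyte and smooth muscle markers had 2 of 6 higher, or 1 without any of 6 single libraries, a median of -0.10 and sums from 309 to 381 against 253 to 602. Markers of Schwann cells and neurons had 2 of 3 lower, or 1 without sgScramble replicate 1, sgNlrc5 replicate 1 or sgNlrc5 replicate 2, with a median of -0.40 and sums from 3612 to 5142 against 5272 to 6561. Of 9 skeletal muscle markers, 7 were not listed, among them Ckm, Myh4 and Myog, and the other two summed to between 36.2 and 57.2 with sgNlrc5 against 40.8 to 59.8 with sgScramble. None of 7 keratinocyte markers was listed. The 1 listed adipocyte marker of 5 had 80.4 to 103 with sgNlrc5 against 20.7 to 119 with sgScramble and was called higher only without sgScramble replicate 2. The part of any of these cells in the values of the 7 genes was not tested.

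TDMa cells in culture, where none of the 8 T cell markers was listed and 1 of the 8 macrophage markers was, gave a test on libraries outside the choice. Of the 7 genes, 6 were listed and tested, and Capn6 was not listed. By limma with Benjamini-Hochberg adjustment over 12138 genes at a threshold of 0.05, Npnt, Igfn1 and Gja1 were lower with sgNlrc5, Pak3 was higher, and Cer1 and Fndc3c1 were not called. Over all genes 16.9% were called lower and 17.3% higher, so 3 of 6 lower stands above that share and 1 of 6 higher near it. The median log2 fold change of the 6 genes was -1.0, against 0.00 over all genes.

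**Figure D3:**
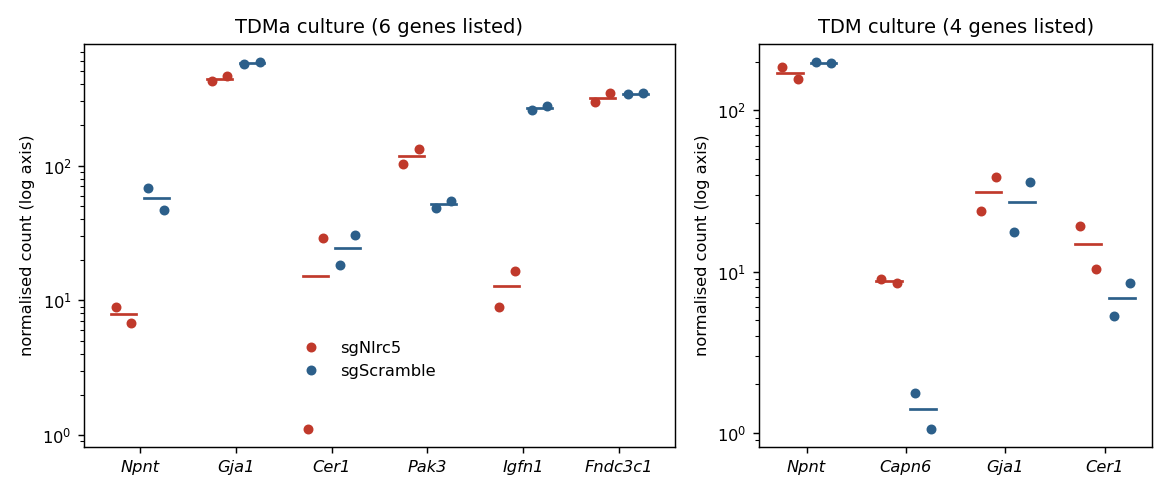
Normalised count (log axis) of the listed genes in TDMa culture (left, 6 genes) and TDM culture (right, 4 genes), sgNlrc5 left and sgScramble right of each pair, each point a library and each line a group mean. In TDMa culture Igfn1 lay at 8.99 and 16.5 with sgNlrc5 against 258 and 277 with sgScramble, while Pak3 lay the other way, at 102 and 132 against 48.8 and 54.2.

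Igfn1 fell most. It had 8.99 and 16.5 normalised counts with sgNlrc5, against 258 and 277 with sgScramble, or 25 against 561 reads. The means of 12.7 ± 5.29 and 268 ± 13.1 (SD, n = 2 each) differed 21.0-fold, at log2 -4.34 ± 0.27 (SE, limma adjusted p = 4e-10, interval -4.90 to -3.79). It kept its call without any single library, from -4.75 to -3.94. Igfn1 was 30 from the lowest of 12138 genes by log2 fold change.

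Npnt had 8.99 and 6.78 normalised counts with sgNlrc5, against 67.9 and 46.6 with sgScramble, on 15 against 120 reads. Both sgNlrc5 cultures lay below both sgScramble cultures. The means of 7.89 ± 1.56 and 57.3 ± 15.1 differed 7.26-fold, at log2 -2.70 ± 0.37 (limma adjusted p = 1.4e-05, interval -3.48 to -1.92). Without single libraries it ranged from -2.97 to -2.43 and stayed called.

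Gja1 had 423 and 462 normalised counts with sgNlrc5, against 569 and 584 with sgScramble. The groups did not overlap, but the difference was small beside that in the tumours: means of 442 ± 27.9 and 577 ± 10.5, 1.30-fold lower, at log2 -0.38 ± 0.08 (limma adjusted p = 0.0012, interval -0.55 to -0.21). The call ended when variances were not moderated along the intensity trend (limma adjusted p = 0.053).

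Pak3 went the other way from its tumour values. It had 102 and 132 normalised counts with sgNlrc5, against 48.8 and 54.2 with sgScramble. Both sgNlrc5 cultures thus lay above both sgScramble cultures, as for 33.3% of all genes, and 33.0% lay the other way. Its means of 117 ± 20.8 and 51.5 ± 3.84 gave log2 1.16 ± 0.21 (limma adjusted p = 0.00028, interval 0.71 to 1.6).

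Cer1 could not be judged in TDMa culture. It had 1.12 and 29.1 normalised counts with sgNlrc5, 1 and 30 reads, against 18.2 and 30.4 with sgScramble. The sgNlrc5 cultures disagreed 25.9-fold, and the log2 fold change of -1.62 ± 0.78 was not called (limma adjusted p = 0.12, interval -3.26 to 0.02). It was 0.29 without sgNlrc5 replicate 1 and -3.53 (limma adjusted p = 0.0003) without sgNlrc5 replicate 2. Fndc3c1 had 295 and 345 normalised counts with sgNlrc5, against 337 and 348 with sgScramble, and the groups overlapped. Its log2 fold change of -0.10 ± 0.11 was not called (limma adjusted p = 0.49), with an interval of -0.32 to 0.12.

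TDM culture showed no call for the 4 listed genes. Pak3, Igfn1 and Fndc3c1 were not listed there. Npnt had 186 and 156 normalised counts with sgNlrc5, against 199 and 196 with sgScramble, at log2 -0.21 ± 0.14 (limma adjusted p = 0.70, interval -0.52 to 0.09). The groups did not overlap, as for 19.3% of all genes in that direction, and the difference was small. Gja1 had 23.6 and 38.8 with sgNlrc5, against 17.6 and 36.1 with sgScramble (log2 0.25 ± 0.39, limma adjusted p = 0.89). Cer1 had 19.1 and 10.4 with sgNlrc5, against 5.29 and 8.49 with sgScramble (log2 0.97 ± 0.55, limma adjusted p = 0.65), on 28 against 14 reads. The Gja1 cultures overlapped and the Cer1 cultures did not. Capn6 had 9.0 and 8.52 normalised counts with sgNlrc5, against 1.76 and 1.06 with sgScramble, below the mean of 10 needed for the test. Those are 17 against 3 reads, a ratio of 6.05 with an exact 95% interval of 1.75 to 32.2, which covers counting error only.
Few genes of any kind were called in TDM culture, 0.517% of 11989 (0.234% lower and 0.284% higher, 62 genes in all, and 1084 with an unadjusted p under 0.05), against 34.2% of 12138 in TDMa culture. The 62 calls fell to 2 without the intensity trend. None of the 3 tested genes was called under any alternative run.

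**Figure D4:**
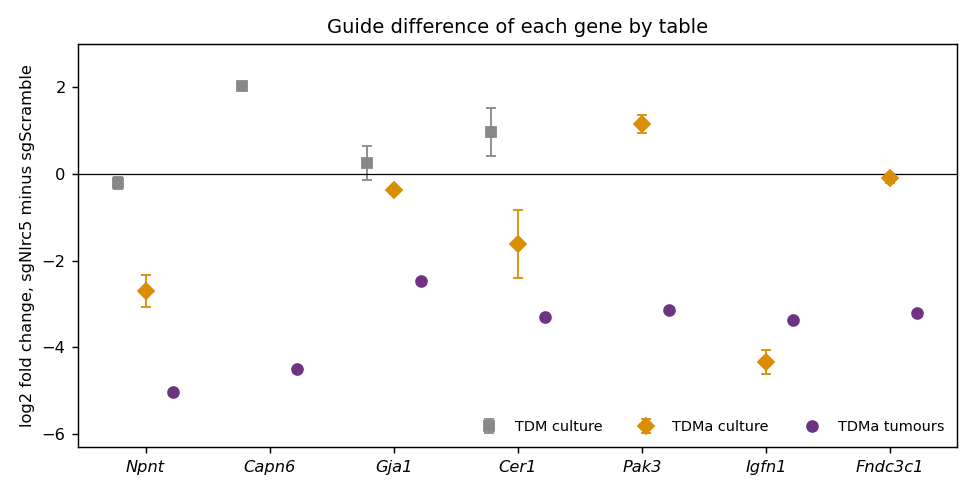
Log2 fold change, sgNlrc5 minus sgScramble, of the 7 genes in TDM culture (grey squares), TDMa culture (orange diamonds) and TDMa tumours (purple circles), with standard errors for the tested culture values and none for the tumours or for Capn6 in TDM culture. The tumour values lie from -5.04 (Npnt) to -2.47 (Gja1), and those in TDMa culture from -4.34 (Igfn1) to 1.16 (Pak3).

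The difference of the guide effect between the lines, TDMa minus TDM culture, could be tested for 3 of the genes. For Npnt it was -2.48 ± 0.35 (limma interaction, adjusted p = 7.6e-06, interval -3.20 to -1.77), with the guide effect at -2.70 in TDMa culture and -0.21 in TDM culture, and it stayed called without each single library. It was not called for Cer1 (-2.59 ± 1.08, limma adjusted p = 0.091, interval -4.81 to -0.37) or Gja1 (-0.64 ± 0.34, limma adjusted p = 0.20, interval -1.34 to 0.07). Cer1 was called without TDMa sgNlrc5 replicate 2 (-4.50, limma adjusted p = 0.0013). Gja1 was called without TDM sgScramble replicate 2 (-1.13, adjusted p = 0.0082) or TDM sgNlrc5 replicate 1 (-0.98, adjusted p = 0.028). Over all 12016 genes 10.4% were called lower in this difference.

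Each table had been normalised on its own by the authors, so levels across tables are set side by side without a test. In sgScramble cells, Npnt averaged 172 ± 11.8 normalised counts in TDMa tumours, 57.3 ± 15.1 in TDMa culture and 198 ± 2.20 in TDM culture. Gja1 averaged 1099 ± 92.6 in TDMa tumours, 577 ± 10.5 in TDMa culture and 26.9 ± 13 in TDM culture. Capn6 averaged 532 ± 60.1 in TDMa tumours and was not listed in TDMa culture, where listed genes had at least 20 reads summed over the 4 libraries. Pak3 averaged 328 ± 116 and 51.5 ± 3.84, Cer1 189.5 ± 29.1 and 24.3 ± 8.67, Igfn1 228 ± 113 and 268 ± 13.1, and Fndc3c1 109 ± 55.2 and 342 ± 8.06, in TDMa tumours and TDMa culture. In sgNlrc5 cells, Fndc3c1 averaged 11.6 ± 7.32 in TDMa tumours and 319.7 ± 35.6 in TDMa culture, and Igfn1 was low in both, at 20.3 ± 7.10 and 12.7 ± 5.29. Npnt and Igfn1 were thus low with the Nlrc5 guide in TDMa culture as well as in tumours. Fndc3c1 and Pak3 were low in the tumours and not in TDMa culture, and the difference between the tables was not tested.

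The partners of the 7 genes, in lists of related genes, did not share their direction in the tumours. Over all tumour genes, 19.7% were called lower and 19.7% higher in limma, with a median log2 fold change of -0.01. The list medians in the tumours were -0.03 for integrins and matrix partners, -0.09 for connexins and pannexins, 0.17 for Nodal, BMP and Wnt ligands and antagonists, 0.13 for their targets, 0.08 for PAK and Rac genes, 1.69 for sarcomere genes, -0.20 for FNDC genes, 0.12 for calpains and -0.06 for genes near Capn6 and Pak3. In TDMa culture, in the same order, they were -0.22, 0.28, 0.02, -0.03, 0.06, -0.85, 0.07, 0.12 and 0.07. Of 18 tested integrins and matrix partners of nephronectin, 6 rose and 3 fell, or 5 to 6 and 2 to 4 without single libraries. Fn1, the fibronectin gene, was among the 3 that fell (log2 -1.11, limma adjusted p = 0.043). The integrin α8 gene Itga8 was not called, at 9.95 ± 4.82 normalised counts with sgNlrc5 and 10.2 ± 2.21 with sgScramble. The integrin ligand osteopontin, Spp1, averaged 3626 ± 458 normalised counts with sgNlrc5 and 401 ± 133 with sgScramble (log2 3.24, limma adjusted p = 7.1e-06). In TDMa culture Spp1 was not called, at 67.7 ± 20.4 with sgNlrc5 and 99.7 ± 9.17 with sgScramble. The part of T cells and macrophages in its tumour values was not tested. The fibronectin receptor subunit Itga5 averaged 2651 ± 281 and 1502 ± 87.1 in the tumours (log2 0.81, limma adjusted p = 7.2e-05). Itgav, another integrin subunit, rose by log2 0.62 (limma adjusted p = 0.00054) and lost its call when scaled to the melanocyte sum (0.36, adjusted p = 0.094). In TDMa culture 2 of 18 rose, from 1 (without sgScramble replicate 1 or sgNlrc5 replicate 1) to 3 (without sgScramble replicate 2), and 8 fell, or 5 without either sgScramble library. Among those that fell were fibronectin itself, Fn1, at 2718 ± 73.6 with sgNlrc5 and 7506 ± 225 with sgScramble (log2 -1.47, limma adjusted p = 1.6e-15) and Itga6, a laminin receptor subunit (log2 -1.03, adjusted p = 2.7e-14). In TDM culture 1 of 13 fell, and no gene of the other 8 lists was called there.

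Other gap junction genes differed in direction from Gja1. Of 8 tested connexins, pannexins and their junction partners, 2 rose and 1 fell in the tumours. The channel gene Panx1 averaged 129 ± 33.9 normalised counts with sgNlrc5 and 33.9 ± 13.9 with sgScramble (log2 1.97, limma adjusted p = 0.00054). The connexin gene Gjb2 averaged 10630.0 ± 2131 with sgNlrc5 and 7358 ± 766 with sgScramble (log2 0.51, limma adjusted p = 0.013), a call that ended when scaled to the melanocyte sum (0.25, adjusted p = 0.24). The connexin gene Gjc3 averaged 752 ± 169 with sgNlrc5 and 1207 ± 68.1 with sgScramble (log2 -0.71, limma adjusted p = 0.0027). A second gene was also called lower without sgScramble replicate 4 or sgNlrc5 replicate 3. In TDMa culture 4 of 7 rose and 3 fell, and Gjb2 was among those that rose, at 3742 ± 108 against 1859 ± 30.9 (log2 1.01, limma adjusted p = 1.2e-12).

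The lists made for Cer1 also held Wnt genes, beyond the Nodal and BMP ligands named above for Cerberus. Of 8 tested ligands and antagonists, 1 rose in the tumours and none fell. This was Twsg1, a BMP-binding protein, at 3308 ± 298 normalised counts with sgNlrc5 and 1914 ± 38.2 with sgScramble (log2 0.79, limma adjusted p = 4.6e-05); without sgNlrc5 replicate 2 there were 2. Nodal, Bmp4 and Lefty2 were not listed. Of 10 tested target genes of these pathways, 1 rose and 1 fell. The Wnt target Axin2 averaged 118 ± 20.1 with sgNlrc5 and 63.1 ± 5.63 with sgScramble (log2 0.88, limma adjusted p = 0.0021), and Bambi, a BMP pseudoreceptor, averaged 128 ± 9.15 and 183 ± 9.40 (log2 -0.51, adjusted p = 0.0063). Without sgScramble replicate 1, 2 fell, and without sgNlrc5 replicate 1, 2 rose. In TDMa culture 1 of 4 ligands and antagonists fell, and none without any single library. There 1 of 9 targets rose, or none without sgScramble replicate 1, and 4 fell. The BMP target Id3 fell by 1.23 on the log2 scale (limma adjusted p = 3.3e-12), and Id1 averaged 212 ± 6.03 with sgNlrc5 and 433 ± 15.8 with sgScramble (log2 -1.03, limma adjusted p = 3.2e-07).

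Among PAK kinases and Rac and Cdc42 signalling genes, 4 of 18 rose in the tumours and none fell, against the direction of Pak3. Single libraries moved the count, to 2 without sgScramble replicate 2 and to 5 without sgNlrc5 replicate 2, and without sgNlrc5 replicate 3 there was 1 that fell. The blood cell GTPase gene Rac2 averaged 320.2 ± 93.5 normalised counts with sgNlrc5 and 99.6 ± 31.2 with sgScramble (log2 1.68, limma adjusted p = 0.00032), and the kinase gene Pak1 averaged 43.4 ± 12.3 and 12.6 ± 2.37 (log2 1.69, limma adjusted p = 0.00098). Neither was listed in either culture table, and the T cell and macrophage sums above were higher in the same tumours, whose part in these values was not tested. In TDMa culture 4 of 14 rose and 2 fell, Git1 by log2 0.43 (limma adjusted p = 2.7e-07) and Rhoq by log2 0.56 (limma adjusted p = 5.3e-06) among those that rose.

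Sarcomere and Z-disc genes were higher in the tumours in which Igfn1 was low. Of 4 tested, 3 rose, also without any single library. The M-band gene Myom1 averaged 118 ± 24.3 normalised counts with sgNlrc5 and 29.8 ± 10.6 with sgScramble (log2 1.99, limma adjusted p = 0.00021), and the Z-disc actinin gene Actn2 averaged 85.0 ± 10.4 and 17.8 ± 10.1 (log2 2.34, adjusted p = 0.00038). The intermediate filament gene Des averaged 336 ± 67.5 with sgNlrc5 and 131 ± 46.6 with sgScramble (log2 1.39, limma adjusted p = 0.00059). In TDMa culture 2 of 6 fell, Des among them at 337 ± 31.7 against 579 ± 0.315 (log2 -0.78, limma adjusted p = 1.8e-06), with 1 call left without sgScramble replicate 1. Without sgNlrc5 replicate 2 there were 3.

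Of 6 FNDC genes in the tumours, 2 fell and 1 rose. Fndc4 averaged 45.5 ± 24.1 normalised counts with sgNlrc5 and 122 ± 16.2 with sgScramble (log2 -1.52, limma adjusted p = 0.0014), and Fndc3a, a relative of Fndc3c1, averaged 708 ± 78.9 and 911 ± 61.2 (log2 -0.37, limma adjusted p = 0.011). The 1 that rose was not called without sgScramble replicate 2 or sgNlrc5 replicate 2, and none of 5 FNDC genes was called in TDMa culture. Of 8 calpain genes 3 rose in the tumours by at most log2 0.51, and none did without sgScramble replicate 1, 2 or 3 or sgNlrc5 replicate 3 or 4, while 1 fell without sgNlrc5 replicate 1. Of 9 calpain genes 2 rose in TDMa culture by at most 0.21, and none did without sgScramble replicate 2 or sgNlrc5 replicate 2.

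Position on the chromosomes was compared in RefSeq order on GRCm38.p6. Npnt lies on chromosome 3, Gja1 on 10, Cer1 on 4 and Igfn1 on 1, while Capn6, Pak3 and Fndc3c1 lie on X, as did 3.05% of 12824 tumour genes with a chromosome. X genes as a whole did not lean one way in the tumours, with 19.2% called lower and 20.2% higher. Capn6 and Pak3 are adjacent, with 0 protein-coding genes between them. Beside them, Dcx and Chrdl1 were not listed, and Rtl9 averaged 5.07 normalised counts with sgNlrc5 and 15.8 with sgScramble (log2 -1.58, limma adjusted p = 0.051). Of 9 tested genes in a wider list around this pair, 3 rose and 2 fell in the tumours. Lhfpl1 rose to 239.6 ± 30.8 with sgNlrc5 against 54.0 ± 11.5 with sgScramble (log2 2.14, limma adjusted p = 1.4e-05). Without single libraries 2 to 3 genes of the list rose, 3 only without sgNlrc5 replicate 1. From 0 to 2 fell, 0 without sgScramble replicate 2. In TDMa culture 1 of 7 of these genes rose, Acsl4, by log2 0.31 (limma adjusted p = 0.00052), and without sgNlrc5 replicate 2 there were 2 that rose and 1 that fell.

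**Figure D5:**
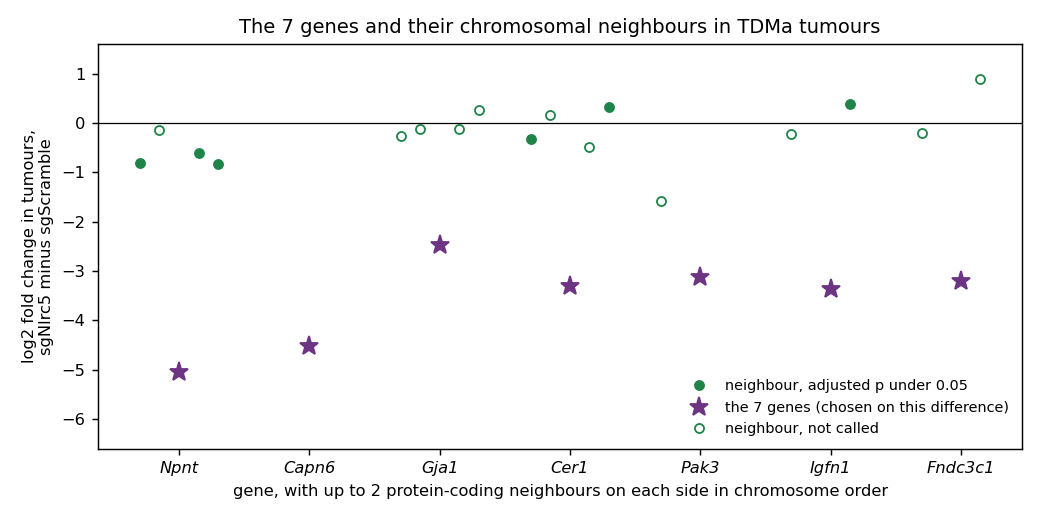
Log2 fold change, sgNlrc5 minus sgScramble, in TDMa tumours of the 7 genes (purple stars) and of up to 2 protein-coding neighbours on each side (green circles, filled where limma's adjusted p was under 0.05). The called neighbours of Npnt lie at -0.84, -0.81 and -0.61, far above Npnt itself at -5.04.

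Npnt was the only one of the 7 with several called neighbours in one direction. On its sides, Aimp1, a component of the tRNA synthetase complex, averaged 770.2 normalised counts with sgNlrc5 and 1348 with sgScramble in the tumours (log2 -0.81, limma adjusted p = 9.7e-05), and the Integrator subunit gene Ints12 averaged 182 and 327 (log2 -0.84, limma adjusted p = 0.00042). Gstcd fell by 0.61 on the log2 scale (limma adjusted p = 0.007), and Tbck was not called (log2 -0.15, limma adjusted p = 0.33). In TDMa culture Aimp1 fell by 0.54 (limma adjusted p = 5.9e-07). Over the 24 neighbours of the 7 genes, 17 were tested in the tumours, 4 fell and 2 rose, with a median of -0.20 against -0.01 over all genes. Of the 2 that rose, Ttc39b, beside Cer1, was not called without sgScramble replicate 1 or 4 or sgNlrc5 replicate 2, 3 or 4 (limma adjusted p from 0.073 to 0.13), and Tmem9, beside Igfn1, was not called without sgScramble replicate 2 (limma adjusted p = 0.051). Nfib, beside Cer1 and the 1 of the 4 that fell not near Npnt, was not called without sgScramble replicate 1, 2 or 3 or sgNlrc5 replicate 2, 3 or 4 (limma adjusted p from 0.055 to 0.11). None of the 4 neighbours of Gja1 was called in the tumours. Tnnt2, the cardiac troponin T gene near Igfn1, fell to 36.3 with sgNlrc5 against 136 with sgScramble in TDMa culture (log2 -1.87, limma adjusted p = 1.6e-06), but was not called in the tumours (log2 -0.22, limma adjusted p = 0.79).

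Genes with a like pattern were sought by Pearson correlation over the 8 tumours, among 11157 genes, as a description in which the points share the guide split. Closest to the mean standardised profile of the 7 genes were the noncoding RNA Peg13 (r = 0.998), at 6.86 normalised counts with sgNlrc5 and 164 with sgScramble, then Cdv3 (r = 0.996), Bnip3l (r = 0.995), and Ppp4r2 and Top2b (r = 0.994 each). Bnip3l averaged 2116 with sgNlrc5 and 4159 with sgScramble, and Top2b 988 and 1908, so a like profile did not mean a like size of change. For deviations from the guide means, the closest gene was Tead1 for Gja1 (r = 0.989), Ddr1 for Cer1 (r = 0.997), Dop1b for Npnt (r = 0.966), Tsku for Capn6 (r = 0.973), Ppp1r16a for Pak3 (r = 0.987), Eef1g for Igfn1 (r = 0.989) and Epb41l3 for Fndc3c1 (r = 0.99). Tsku was also the second closest for Npnt (r = 0.956). Such values were picked as the highest among 11157 genes over only 8 libraries, where high values can arise by chance, and none was tested.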

How the data were processed

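Total RNA of 16 B16F10 libraries was sequenced after directional library preparation, per the labels' protocols. The authors deposited log2 values of a count divided by the library's size factor, plus 1, in 1 table each for TDM culture, TDMa culture and TDMa tumours, per the labels and the file headers. GRCm39 and mm39 stand in the submitters' processing notes as genome builds, and STAR 2.7.10a, DESeq2 1.36.0 and FastQC 0.12.0 as tools, with no role stated. How reads were counted, with which annotation and strand setting, and how the listed genes were filtered is not given in the sources used here.

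Deposited values were turned back into normalised counts, and reads were recovered from the steps of each library (100% of values up to 2000 steps lay within 0.1 of a whole read). Depth was 12183889 to 16390886 reads per library, so genes with few reads carry a wide counting error. Genes averaging 10 or more normalised counts were fitted on log2(normalised count + 1), a pseudocount of 1, with limma 3.58.1 (R 4.3.3), intensity trend, two-sided, with Benjamini-Hochberg adjustment over all genes of the table and a threshold of 0.05. On that scale the fold change of a weakly expressed gene is understated. Errors are standard errors for log2 values and SD for means, and intervals are 95%. The fits were tested on simulated data. Alternatives were no intensity trend, no filter on low values, a mean of at least 50, pseudocounts of 0.5 and 5, array weights, quantile normalisation, equal sums, voom on the recovered reads (not for the line difference), a replicate block and leaving out each library. A scaling to the melanocyte sum was added after seeing the data.

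The 7 genes, the lists of related genes and the cell type markers were chosen with earlier results of these data known. Genes named beside the 7 were, per list, up to 3 with the smallest p among those called in the tumours and up to 2 in TDMa culture, chromosomal neighbours, and the closest genes by correlation. Of these, calls that single libraries ended are given as counts only, apart from those of the neighbours Ttc39b, Tmem9 and Nfib. Itga8 and the tumour value of Fn1 are given outside this rule. Predicted genes were not named.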

Additional observations from a re-analysis of the deposited data

Results flagged for a closer look

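In sgNlrc5 tumours, the highest Npnt library, replicate 4, stood apart at 12.1 normalised counts, against 2.01 to 3.62 in the other 3. The lowest Pak3 library of the same group, replicate 3, stood apart at 25.3, against 38.1 to 39.7 in the other 3. These were found among 14 groups of 4 libraries examined for a library far from the rest of its group, and chance flags about 1 in 20 such groups.

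The guide effect on Npnt differed between the lines, by -2.48 on the log2 scale for TDMa minus TDM culture. For 3 genes the sgNlrc5 libraries all lay below the sgScramble libraries in the tumours, where the genes were picked, and all above them in 1 of the cultures. The difference between tumours and culture was not tested. With 2 libraries per guide, sgNlrc5 lay above in this way for 19.3% of all genes in TDM culture and 33.3% in TDMa culture. Capn6 had a log2 fold change of -4.51 in TDMa tumours and 2.03 in TDM culture, where it rests on 17 reads with sgNlrc5 and 3 with sgScramble. Cer1 had -3.31 in TDMa tumours and 0.97 in TDM culture, where it was not called (limma adjusted p = 0.65) and rests on 28 against 14 reads. Pak3 had -3.13 in TDMa tumours and 1.16 in TDMa culture.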

How the results depend on the processing

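All 7 genes kept separate groups in the tumours under each alternative run. They were chosen on this contrast, and leaving out a library or changing the pseudocount or the fit cannot make separate groups overlap. Only runs that rescaled the values could have done so. None of the genes tested in TDM culture was called there. In TDMa culture 4 were called, 4 to 5 without single libraries and 5 with the replicate block. Without the intensity trend 3 were called, as Gja1 lost its call. With a mean of at least 50 there were also 3, as Npnt fell below that mean and was not tested. Genes called in TDM culture numbered 62, but 2 without the intensity trend, 122 with the replicate block and 72 to 130 without single libraries. Without the trend, 1581 were called in TDMa culture, against 4156, and 1113 in the line difference, against 2609. Without single libraries the counts were 2820 to 3418 in TDMa culture, 4327 to 5366 in the tumours and 1894 to 2764 in the line difference. Equal sums turned the TDMa culture split to 1643 higher and 2587 lower, against 2100 and 2056. Scaling to the melanocyte sum turned the tumour split to 1162 higher and 3377 lower, against 2635 and 2633. Directions reversed without single libraries for Gja1 in TDM culture (-0.24 without sgScramble replicate 1, -0.09 without sgNlrc5 replicate 2, up to 0.75 otherwise), and in TDMa culture for Cer1 (-3.53 to 0.29) and Fndc3c1 (-0.22 to 0.01), the upper values both without sgNlrc5 replicate 1. Of 3 genes, 1 was called in the line difference, and 1 to 2 without single libraries. The cause of these changes was not tested. Same-numbered libraries did not pair (correlations of deviations -0.06 in TDM culture, 0.02 in TDMa culture and -0.26 to 0.15 in tumours), and no sample was treated as paired. With the replicate block, 2 genes were called in the line difference, Cer1 being added (adjusted p = 0.037), and Cer1 was called in TDMa culture (adjusted p = 0.0076).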

Other observations

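Outside the 7, the 9 genes with the lowest log2 fold changes in the same tumours, among genes averaging at least 50 normalised counts with 1 of the guides, were chosen after their values were seen and on the same contrast. In TDMa culture 6 of them were called lower with sgNlrc5 by limma: Peg13, Pcdhb2, Pcdhb10 (adjusted p = 0.0017), Nebl (1.1e-05), Fam234b (1.1e-09) and Ddx25 (8.3e-08). Of the other 3, Tenm4 and Hmgn5 were called higher and Fez1 was not called. Over all genes in TDMa culture, 16.9% were called lower and 17.3% higher. The noncoding RNA Peg13 averaged 6.86 ± 2.57 normalised counts with sgNlrc5 and 164 ± 25.0 with sgScramble in the tumours, and 16.6 ± 1.20 and 341 ± 21.6 in TDMa culture (limma adjusted p = 1.1e-11), but 339 ± 3.28 and 361 ± 20.4 in TDM culture (limma adjusted p = 0.85). The protocadherin gene Pcdhb2 likewise averaged 4.97 ± 2.83 and 61.4 ± 21.4 in the tumours and 2.98 ± 2.63 and 73.0 ± 15.8 in TDMa culture (limma adjusted p = 1e-06). These resemble Npnt and Igfn1 in being low with sgNlrc5 in both TDMa settings.

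Tenm4, a teneurin of the cell surface, averaged 30.6 ± 9.17 with sgNlrc5 and 176 ± 47.7 with sgScramble in the tumours, but 471 ± 38.4 and 300.1 ± 15.4 in TDMa culture (limma adjusted p = 3.7e-05), where it was higher with sgNlrc5, as Pak3 was. Hmgn5, a nucleosome-binding protein gene, averaged 76.8 ± 34.8 and 533 ± 102 in the tumours and 1242 ± 106 and 1106 ± 36.7 in TDMa culture (limma adjusted p = 0.045). Fez1 averaged 47.9 ± 5.21 with sgNlrc5 and 418 ± 162 with sgScramble in the tumours, and 19.5 ± 5.31 and 11.4 ± 0.0463 in TDMa culture (limma adjusted p = 0.22). Differences between tumours and culture were not tested.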
